A study of Mus musculus with 4 samples.

Results

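The genes described here encode the machinery that copies DNA and supplies its building blocks: the proteins that load and start the replicative helicase, the sliding clamp and its loader, the polymerases and primase, the proteins that bind single strands and join Okazaki fragments, enzymes of deoxynucleotide synthesis, chromatin factors that travel with the fork, and the E cyclins. They were listed by name, as 42 mouse gene symbols, by a rule that reads no signal, although earlier results of these data were known when the list was made. In the array annotation 41 of the 42 were found among 18193 genes, and Chaf1a was not analysed here. For each gene the brightest probe set was used, by mean log2 signal over the 4 arrays. The 41 genes had 88 probe sets in all, 10 genes having 1 and 31 having several.

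The samples were bone marrow-derived dendritic cells (BMDC) from male C57BL/6 mice aged 6 to 8 weeks, grown for 7 days with 500 U/ml of GM-CSF, the cytokine that drives myeloid precursors towards dendritic cells and macrophages. Control BMDC were kept without tumour material. For the live coculture, 1D8 tumour cells, which derive from mouse ovarian surface epithelium, were added at 1 for every 5 BMDC, and in the irradiated coculture the 1D8 cells had first received 50 Gy. In the conditioned medium sample 25% of the volume was 1D8 supernatant, and no tumour cell was added. All 4 samples were sorted by flow cytometry after staining for CD80, a costimulatory surface protein, and each condition was 1 biological sample on 1 Affymetrix array. There were therefore no replicates, no error between cultures could be estimated, and no test was run. The labels do not say how many mice gave marrow to a sample, and no array of 1D8 cells alone was analysed here.

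Cells make most of these proteins when they pass from G1 into S phase. The transcription factors of the E2F family, held in check by the retinoblastoma proteins until cyclin-dependent kinases release them, drive many of the genes together. In cultures of bone marrow with GM-CSF, dividing precursors give rise to dendritic cells and macrophages that divide less. In RNA from a whole sample, fewer dividing cells and less RNA per dividing cell cannot be told apart.

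Reference promoters show what the genes share besides function. RefSeq promoters of assembly GRCm38.p6, 250 bases before to 50 bases after a listed start, were at hand for 33 of the 41 genes. The genes without an entry were Gins1, Gins2, Gins4, Mcm4, Rfc2, Pole, Prim2 and Ccne2. The E2F core, searched on both strands as the word TTCCCGC, the word TTCGCGC, the word TTGCCGC or the word TTGGCGC, which may overlap, was found in 21 of the 33 genes (63.6%), against 16.0% of 14452 measured genes with a listed promoter. The CCAAT box, bound by NF-Y and searched on both strands, was found in 60.6% of the 33 genes against 42.0% of all. The CHR element of mitotic genes, searched on both strands as the word TTTGAA or the word TTCGAA, was found in 18.2% against 17.5%. A match is a string of letters and not a shown binding site. The promoters below are those of the 5 genes that were at least 2-fold higher than the control both in the live coculture and in conditioned medium (Cdc6, Rfc3, Prim1, Lig1 and Tk1), and that of Mcm6, which held the most E2F words. They read 5′ to 3′ in the direction of the gene, with E2F words in capitals, and words that overlap run together. They lie at chr11:98907901-98908200 (plus strand), chr5:151651159-151651458 (minus), chr10:128014965-128015264 (plus), chr7:13278576-13278875 (plus, the start with the most E2F words of its 3 listed starts), chr1:128359656-128359955 (minus) and chr11:117825965-117826264 (minus).
Cdc6: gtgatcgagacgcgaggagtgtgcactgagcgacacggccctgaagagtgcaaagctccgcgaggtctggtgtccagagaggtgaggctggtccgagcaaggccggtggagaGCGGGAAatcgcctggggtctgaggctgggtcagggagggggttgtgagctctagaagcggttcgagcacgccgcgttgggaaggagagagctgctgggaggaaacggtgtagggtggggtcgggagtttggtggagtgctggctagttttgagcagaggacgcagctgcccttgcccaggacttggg
Rfc3: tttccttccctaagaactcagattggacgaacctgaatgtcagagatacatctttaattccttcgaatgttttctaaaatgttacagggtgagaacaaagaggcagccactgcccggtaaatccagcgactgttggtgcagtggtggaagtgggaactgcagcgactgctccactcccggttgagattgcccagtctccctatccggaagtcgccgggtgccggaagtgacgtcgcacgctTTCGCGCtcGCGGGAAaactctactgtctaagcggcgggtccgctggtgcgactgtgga
Prim1: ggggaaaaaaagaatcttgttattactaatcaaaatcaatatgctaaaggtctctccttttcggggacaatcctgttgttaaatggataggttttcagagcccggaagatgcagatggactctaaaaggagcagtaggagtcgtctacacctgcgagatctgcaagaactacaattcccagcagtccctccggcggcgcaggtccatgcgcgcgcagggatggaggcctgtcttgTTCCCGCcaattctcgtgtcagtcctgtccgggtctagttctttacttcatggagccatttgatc
Lig1: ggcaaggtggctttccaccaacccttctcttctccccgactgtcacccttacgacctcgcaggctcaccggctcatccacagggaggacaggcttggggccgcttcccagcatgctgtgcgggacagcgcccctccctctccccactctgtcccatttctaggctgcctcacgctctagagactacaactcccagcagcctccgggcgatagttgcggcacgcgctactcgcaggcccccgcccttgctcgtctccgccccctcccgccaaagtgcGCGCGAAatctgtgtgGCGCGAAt
Mcm6: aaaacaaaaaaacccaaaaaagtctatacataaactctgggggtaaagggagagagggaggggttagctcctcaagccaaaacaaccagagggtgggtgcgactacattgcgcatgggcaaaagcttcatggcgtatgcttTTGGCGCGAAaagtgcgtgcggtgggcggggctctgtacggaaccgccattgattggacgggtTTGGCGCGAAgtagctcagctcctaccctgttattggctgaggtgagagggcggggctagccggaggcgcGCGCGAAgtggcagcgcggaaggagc
Tk1: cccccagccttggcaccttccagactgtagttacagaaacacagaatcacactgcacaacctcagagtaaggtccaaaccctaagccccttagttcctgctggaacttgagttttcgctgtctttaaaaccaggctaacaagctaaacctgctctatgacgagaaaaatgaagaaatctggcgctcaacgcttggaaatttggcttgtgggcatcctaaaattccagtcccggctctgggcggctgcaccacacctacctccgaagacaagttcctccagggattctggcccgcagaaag
Cdc6 and Prim1 each hold 1 E2F word, Rfc3 and Lig1 hold 2, and Mcm6 holds 5, counting overlapping words separately. None of the 4 words lies in this window of Tk1.

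The values are MAS5 signals, the linear brightness that the Affymetrix software assigns to a probe set after subtracting mismatch probes. Signals below 44.3, which is the 50th percentile of the signals of all arrays and is called the floor, were raised to it, and genes were called higher or lower when signals differed at least 2-fold. The median signal was 38.7 in the control and 45.3 to 46.8 on the other arrays, and 58.8% to 62.5% of genes exceeded the floor. The ratio of 3′ to 5′ control probe sets of Actb, which reads RNA integrity, stood at 1.30 for the control and 1.12 to 1.20 for the treated arrays. Ptprc, the gene of the leukocyte marker CD45, had signals of 2974.3 (control), 2721.9 (live), 2976.5 (irradiated) and 3265.1 (conditioned medium). All 15 BMDC markers exceeded the floor on each array, except that Ly75 lay under it in the live coculture. Against the control 2 of them were at least 2-fold higher and 4 lower in the live coculture, 3 and 3 in the irradiated coculture, and 2 and 2 in conditioned medium. Of all genes 3.36% were higher and 2.23% lower in the live coculture. The shares were 3.47% and 2.25% in the irradiated coculture and 2.30% and 1.41% in conditioned medium. Ccr7, a chemokine receptor of mature dendritic cells, had 596.4 (control), 131.6 (live), 117.5 (irradiated) and 175.7 (conditioned medium). H2-Eb1, an MHC class II chain, had 4244.1, 1347.5, 1652.9 and 3527.6 on the same arrays, and Itgam, the integrin chain CD11b, had 1038.1, 2846.3, 3675.2 and 2740.5. Of the 41 replication genes 40 exceeded the floor on all 4 arrays. Tyms, thymidylate synthase, was the exception, under the floor on every array with signals of 14.6 to 40.5. A further probe set is annotated to both Tyms and its pseudogene Tyms-ps and was not used, so nothing is said about Tyms.

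Most replication genes had their highest signals in conditioned medium and the live coculture, while the irradiated coculture lay near the control. Of the 40 genes above the floor, 33 had their highest signal in conditioned medium, against 26.5% of the 9847 genes above the floor on all arrays, and the other 7 had it in the live coculture (18.8%). None was highest in the control (35.8%) or in the irradiated coculture (19.0%). The lowest signal was the control's for 21 genes (31.2% of all), the irradiated coculture's for 18 (23.4%), that of conditioned medium for 1, Fen1 (21.4%), and the live coculture's for none (24.1%). For 32 genes (80.0%) the signals in both conditioned medium and the live coculture exceeded both the control and the irradiated coculture, against 14.8% of all genes above the floor, and for none were both below the others (12.9% of all). The 8 exceptions were Orc1, Cdc6, Mcm2, Gins3, Rfc2, Rpa1, Rpa3 and Fen1. At the brightest probe sets, to which all values refer unless another is named, no replication gene was at least 2-fold lower in any of the 4 comparisons. Cdc6, Rfc3, Rfc4, Pole, Chaf1b and Ccne2 were dim in the control (53.1 to 107.7), and none of their ratios past 2-fold holds with the floor raised to 156. The 3 comparisons with the control share its array, so their values are given side by side and are not independent of each other.

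**Figure D1:**
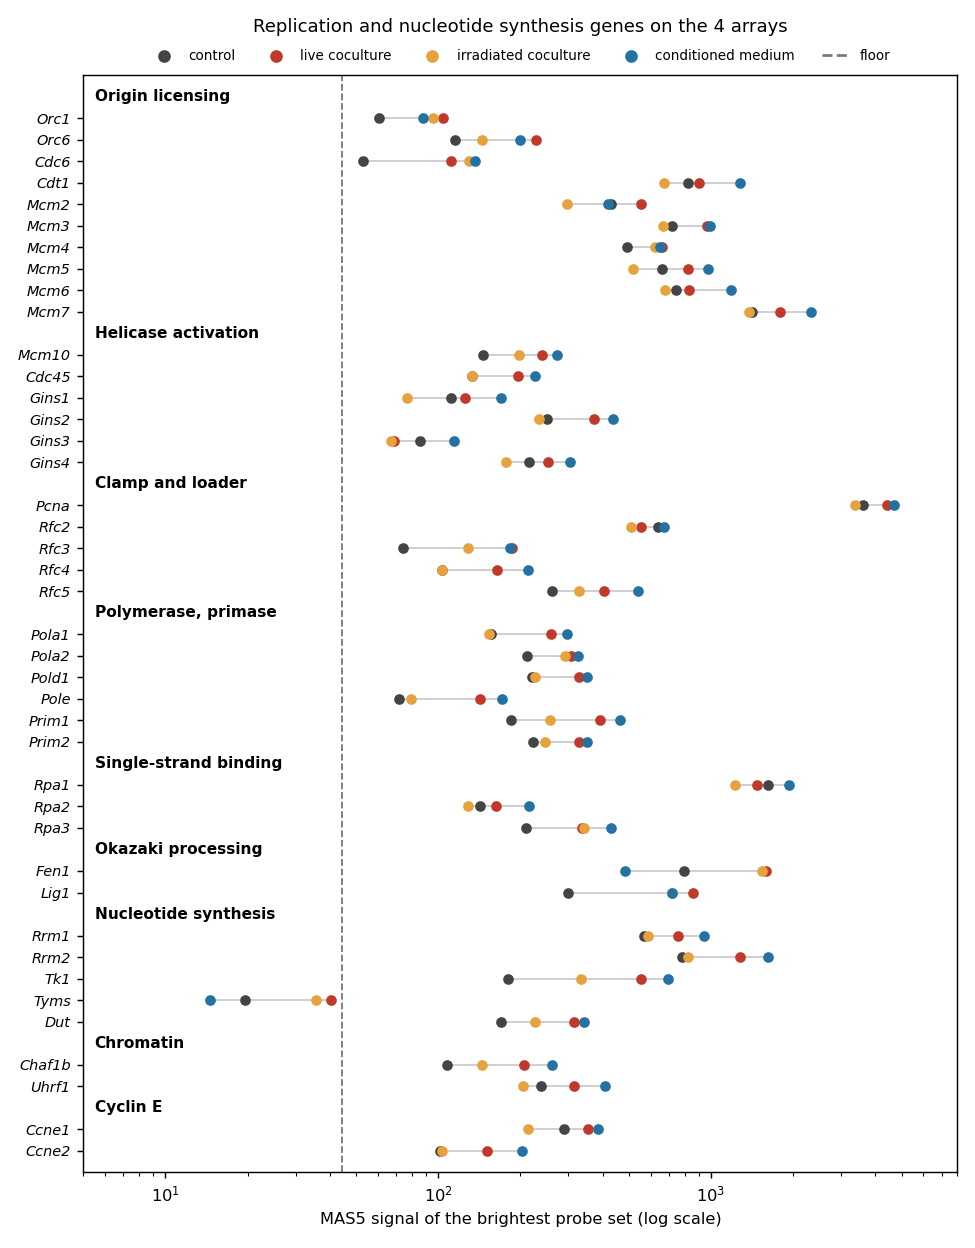
MAS5 signals (horizontal log axis) of the 41 genes on the 4 arrays, by role, each point being 1 array and the dashed line the floor of 44.3. For most genes the conditioned medium point lies farthest right and the control or irradiated coculture point farthest left, Fen1 has its lowest point in conditioned medium, and Tyms lies left of the floor. Points that coincide hide each other, as for Lig1 in irradiated coculture and conditioned medium.

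Conditioned medium, which exposes BMDC to what the tumour cells released, had the most replication genes past the threshold. There 13 of 41 genes were at least 2-fold higher, against 2.30% of all 18193 genes and 3.50% of those above the floor on all arrays. None was lower, against 1.41% and 2.01%. The median log2 ratio was 0.71, with 38 genes above 0, against a median of 0.00 for the 9847 genes above the floor, 50.2% of which were above 0 and 49.8% below. The live coculture had 5 of 41 genes at least 2-fold higher, against 3.36% of all genes and 4.78% of those above the floor, and none lower, against 2.23% and 3.33%. Its median log2 ratio was 0.56 with 37 genes above 0 and 3 below. For genes above the floor the median was -0.04, with 46.4% above 0 and 53.5% below. In the irradiated coculture 2 of 41 genes were at least 2-fold higher, beside 3.47% of all genes and 4.85% of those above the floor, and none was lower, beside 2.25% and 3.36%. The median was 0.03, and 22 genes lay above 0 and 18 below, beside 46.1% and 53.8% of genes above the floor. The share of replication genes at least 2-fold higher in the irradiated coculture was thus near that of all genes above the floor.

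Irradiated and live coculture differed directly as well. None of the 41 genes was at least 2-fold apart between these arrays, on which 0.368% of all genes were lower and 0.302% higher in the irradiated coculture (0.396% and 0.335% of those above the floor). The shift was small but spread over nearly the whole group: 38 of 41 genes were lower in the irradiated coculture, with a median log2 ratio of -0.48 and a range from -0.89 to 0.21. Of the 9847 genes above the floor 49.9% were lower and 50.1% higher, with a median of 0.00. Only Cdc6 (log2 ratio 0.21) and Rpa3 (0.02) lay above 0. The comparison of conditioned medium with control shares no array with that of irradiated with live coculture, and 36 of the 40 genes were both higher in the first and lower in the second, against 24.9% of all genes above the floor.

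**Figure D2:**
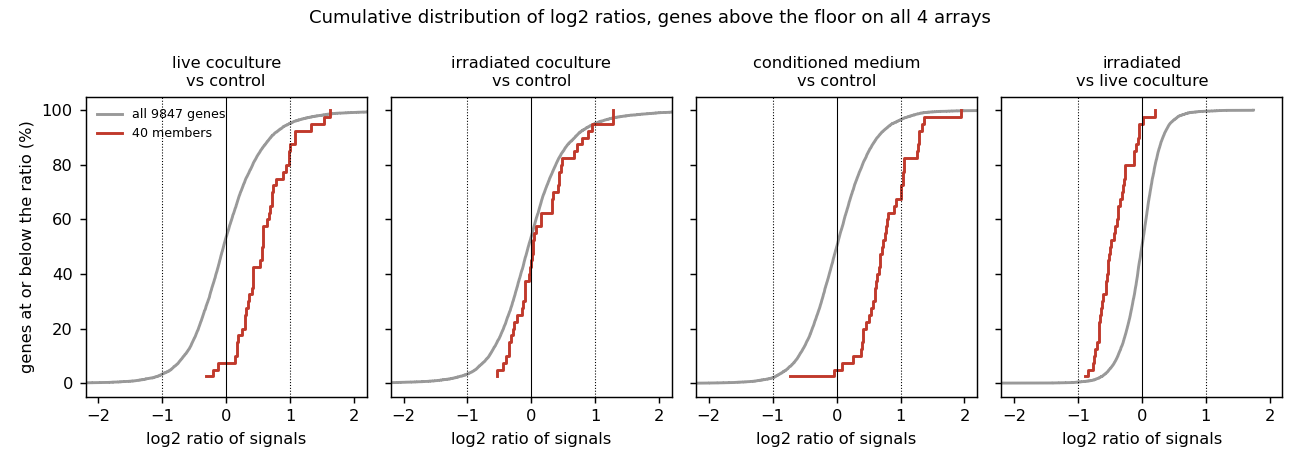
Cumulative percent of genes (vertical axis) at or below a log2 ratio (horizontal axis) in the 4 comparisons, for the 40 replication genes above the floor on all arrays (red) and all 9847 such genes (grey); dotted lines mark 2-fold. The red curve lies to the right of the grey in live coculture and conditioned medium, runs close to it in irradiated coculture against control, and lies to its left in irradiated against live coculture.

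With 1 array per condition the nearest measure of error is the disagreement between probe sets of the same gene, which leaves out the spread between cultures. Over 4092 genes with several probe sets above the floor, the SD of a log2 ratio between them was 0.501 for live coculture against control, 0.453 for irradiated coculture against control, 0.448 for conditioned medium against control and 0.248 for irradiated against live coculture. In conditioned medium 32 of the 40 genes were higher by more than this SD and 1 was lower, against 17.8% and 16.0% of genes above the floor. In the live coculture 23 were higher by more than the SD and none was lower (16.2% and 16.3% of all). In the irradiated coculture 9 were higher and 2 lower (16.7% and 19.2%). Between the cocultures 32 were lower in the irradiated sample by more than the SD and none was higher (18.4% and 16.1%). The remaining single-gene ratios are within the disagreement of probe sets and are given as values only.

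Origin licensing, in which ORC, CDC6 and CDT1 load the MCM2-7 helicase on DNA before S phase, showed modest ratios. At their brightest probe sets the genes Mcm2 to Mcm7 were within 1.64-fold of the control in every treated sample. Other probe sets gave larger ratios: 1 of Mcm3 was 2.50-fold higher in the live coculture and 2.35-fold higher in conditioned medium, and 1 of Mcm7 was 2.18-fold higher in conditioned medium. Mcm7, a helicase subunit, had signals of 1411.7 (control), 1782.7 (live), 1381.0 (irradiated) and 2315.9 (conditioned medium). Mcm5, given like all later genes by the same sequence of arrays, had 660.3, 823.0, 516.0 and 978.4, and Mcm6 had 744.1, 833.0, 676.2 and 1185.9. In these 3 genes conditioned medium was highest, the live coculture second and the irradiated coculture lowest. Mcm3 had signals of 718.4, 962.8, 668.4 and 992.6. Mcm4 had 493.2, 659.9, 622.9 and 648.1 at its brightest probe set, where the 3 treated arrays lay within 1.06-fold of each other. At its other probe set Mcm4 had 366.4, 606.8, 462.8 and 602.6. There it was 1.66-fold higher in the live coculture, 1.64-fold higher in conditioned medium, and 1.31-fold lower in the irradiated than in the live coculture. Mcm2 had 430.1, 551.7, 297.4 and 420.5, which made it 1.86-fold lower in the irradiated than in the live coculture, while conditioned medium and control were alike at this probe set. At its other probe set Mcm2 had 283.7, 541.6, 343.3 and 479.2, 1.91-fold higher in the live coculture and 1.69-fold higher in conditioned medium.

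The loading factors differed more from each other. Cdc6, the ATPase that recruits the helicase, had signals of 53.1 (control), 111.6 (live), 129.1 (irradiated) and 136.6 (conditioned medium) (2.10-fold, 2.43-fold and 2.57-fold higher). All 3 treated arrays lay above the control, including the irradiated coculture, and the control signal was just above the floor. Cdt1, the partner of CDC6 that is destroyed in S phase, had 820.1, 901.4, 670.4 and 1276.1. The origin recognition subunit gene Orc1 had 60.4, 103.9, 95.6 and 87.8. The other probe set of Orc1 had 39.4, 102.9, 38.3 and 51.2, at least 2.32-fold lower in the irradiated than in the live coculture. Its companion Orc6 had 115.2, 228.2, 144.3 and 199.7, and at 1.98-fold was just under the threshold in the live coculture. Unlike most of the group, both Orc genes were highest in the live coculture.

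Helicase activation, in which MCM10, CDC45 and the GINS complex turn the loaded helicase into a moving one, did not pass 2-fold at the brightest probe sets, where 5 of its 6 genes were higher than the control in the live coculture and all 6 in conditioned medium. Mcm10 had signals of 146.0, 239.6, 197.4 and 273.1 in control, live coculture, irradiated coculture and conditioned medium. Cdc45 had 133.0, 196.0, 133.5 and 225.3. Gins2 had 250.1, 371.1, 234.4 and 436.4, and its other probe set had 98.7, 240.9, 131.7 and 275.5, which is 2.44-fold higher in the live coculture and 2.79-fold higher in conditioned medium. At the brightest probe sets of Cdc45 and Gins2, control and irradiated coculture were within 1.07-fold of each other and both other arrays were higher. Gins1 had 111.1, 125.6, 76.9 and 169.1, and Gins4 had 214.2, 253.4, 177.8 and 302.9. Gins3 had 85.8, 69.1, 67.3 and 114.0 at its brightest probe set, with both cocultures below the control, and 44.7, 59.2, 62.1 and 51.8 at the other, with both above it. The probe sets of Gins3 disagree, and no direction in the cocultures is given for it.

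The sliding clamp and its loader split by subunit. Pcna, the clamp that tethers polymerases to DNA, had signals of 3608.7 (control), 4402.1 (live), 3363.8 (irradiated) and 4687.6 (conditioned medium). It kept the order of the group at small ratios. Its ratios to the control were 1.30-fold higher at most, within the SD between probe sets, and it was 1.31-fold lower in the irradiated than in the live coculture (log2 ratio -0.39), beyond the SD of 0.248 for that comparison. Rfc3, a subunit of the clamp loader, had 74.4, 186.1, 128.7 and 182.7, and was 2.50-fold higher in the live coculture and 2.46-fold higher in conditioned medium. Its other probe set gave 2.42-fold and 1.97-fold, the second under the threshold. Rfc4 had 103.6, 164.5, 103.2 and 213.4 (2.06-fold higher in conditioned medium). Rfc5 had 260.9, 405.5, 326.8 and 541.7 (2.08-fold higher in conditioned medium). Rfc2 differed from its partners, with 636.3, 551.5, 509.0 and 671.4 and 1.32-fold between its highest and lowest signals. A further probe set of Rfc2 had 106.5, 52.1, 43.1 and 88.1, at least 2.40-fold lower than the control in the irradiated coculture and 2.04-fold lower in the live coculture.

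At their brightest probe sets all 6 genes of polymerases and primase were higher than the control in the live coculture and in conditioned medium, with median log2 ratios of 0.65 and 0.80, beside 0.15 in the irradiated coculture. Prim1, the catalytic primase subunit that lays down RNA primers, had signals of 184.9, 390.4, 257.0 and 465.5 in control, live coculture, irradiated coculture and conditioned medium. It was 2.11-fold higher in the live coculture and 2.52-fold higher in conditioned medium. Its other probe set had 110.7, 158.1, 82.9 and 220.9, which is 1.43-fold higher in the live coculture, under the threshold, and 1.34-fold lower in the irradiated coculture, where the brightest was 1.39-fold higher. Pole, the catalytic subunit of the leading-strand polymerase, had 71.9, 142.8, 79.4 and 171.5. It was 2.39-fold higher in conditioned medium, 1.99-fold higher in the live coculture and 1.10-fold higher in the irradiated coculture. Pola1, the catalytic subunit of polymerase alpha, had 155.5, 259.6, 153.1 and 296.4. Its accessory subunit Pola2 had 212.2, 305.5, 292.0 and 324.8. Pold1, of the lagging-strand polymerase delta, had 220.5, 327.2, 225.5 and 352.1, and 136.4, 129.5, 91.0 and 166.2 at its other probe set, where the live coculture was not above the control. Prim2, the large primase subunit, had 222.4, 328.4, 246.7 and 350.4. Pole and Pola1 were 1.80-fold and 1.70-fold lower in the irradiated than in the live coculture, whereas Pola2 differed by 1.05-fold.

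Among the genes of RPA, the complex that coats single-stranded DNA, only the small subunit gene Rpa3 reached 2-fold, with signals of 209.0, 336.5, 342.3 and 430.8 (2.06-fold higher in conditioned medium). Rpa1 had 1616.6, 1474.8, 1224.2 and 1934.4 at its brightest probe set and 451.1, 512.1, 348.7 and 773.3 at the other, with the live coculture on opposite sides of the control. The gene Rpa2 had 142.5, 162.8, 128.2 and 215.1. Lig1, the ligase that seals Okazaki fragments, had 298.1, 860.0, 718.5 and 720.4. It was 2.88-fold higher in the live coculture, 2.41-fold in the irradiated coculture and 2.42-fold in conditioned medium, so that, as for Cdc6, all 3 treated arrays were higher than the control. Fen1, the flap nuclease that trims Okazaki fragments, had 796.5, 1592.6, 1543.2 and 481.8 at its brightest probe set. The cocultures were 2.00-fold (just under the threshold) and 1.94-fold higher, and conditioned medium 1.65-fold lower. Its other probe set had 418.3, 431.8, 310.3 and 483.9, with conditioned medium highest and the irradiated coculture lowest. The probe sets of Fen1 disagree, and no direction is given for it.

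In the live coculture and in conditioned medium the largest ratio to the control belonged to an enzyme of deoxynucleotide synthesis. In the irradiated coculture Cdc6 (2.43-fold) and Lig1 (2.41-fold) had the largest. Tk1, the thymidine kinase of S phase, had signals of 180.1 (control), 554.5 (live), 333.4 (irradiated) and 694.0 (conditioned medium). It was 3.08-fold higher in the live coculture and 3.85-fold higher in conditioned medium, the only gene of the group past 3-fold in either, and 1.85-fold higher in the irradiated coculture. Rrm2, the limiting subunit of ribonucleotide reductase, had 782.8, 1281.9, 824.2 and 1618.8 (2.07-fold higher in conditioned medium). Its other probe sets gave larger ratios: the second brightest had 321.7, 926.9, 527.2 and 1056.6 (3.28-fold higher in conditioned medium and 2.88-fold in the live coculture). Rrm1, the large subunit, had 567.3, 756.7, 585.9 and 939.4 at the brightest probe set and 325.7, 937.9, 622.1 and 972.1 at the second, where it was 2.88-fold higher in the live coculture and 2.98-fold higher in conditioned medium. Dut, the dUTPase that keeps uracil out of DNA, had 169.1, 314.2, 225.7 and 341.5 (2.02-fold higher in conditioned medium). Its other probe set lay under the floor in control and conditioned medium, as did that of Chaf1b.

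Chaf1b, a subunit of the chromatin assembly factor that deposits histones behind the fork, had signals of 107.7, 205.6, 145.1 and 261.9 (2.43-fold higher in conditioned medium). Uhrf1, which carries DNA methylation to the new strand, had 238.3, 314.2, 204.8 and 407.8, and 58.0, 153.0, 97.0 and 173.7 at its other probe set. At that probe set it was 2.64-fold higher in the live coculture and 2.99-fold higher in conditioned medium. Of the cyclins that start S phase, Ccne2 had 101.3, 151.5, 103.3 and 203.1 and was just past 2-fold higher in conditioned medium (2.00-fold), and Ccne1 had 290.1, 355.2, 212.4 and 385.7. In both, conditioned medium was highest. The other probe set of Ccne1 had 114.4, 191.2, 137.1 and 219.3, which is 1.67-fold higher in the live coculture and 1.92-fold higher in conditioned medium.

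Probe sets of 1 gene were then compared with each other. In 22 of the replication genes several probe sets exceeded the floor on all arrays. Conditioned medium exceeded the control at all probe sets of 19 of these, and all probe sets of 17 were higher in the live coculture. In the irradiated against the live coculture the probe sets of 21 of the 22 lay on 1 side of 0, all of them lower, and Gins3 was the exception. In the irradiated coculture against the control only 6 genes had all probe sets above 0. The same counts were not made over all genes with several probe sets. How often probe sets of any gene share a direction is therefore not known here. Genes with an E2F word in the promoter and those without had overlapping ratios. Over the 21 and 11 genes above the floor the median log2 ratios were 0.67 and 0.56 in the live coculture, 0.03 and 0.32 in the irradiated coculture, 0.73 and 0.76 in conditioned medium, and -0.43 and -0.48 between the cocultures. Mcm3, with 5 probe sets above the floor, had 1 that was lower than the control on each treated array (508.4 in the control, 346.8, 297.0 and 350.9 in live coculture, irradiated coculture and conditioned medium) while the other 4 were higher in live coculture and conditioned medium.

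**Figure D3:**
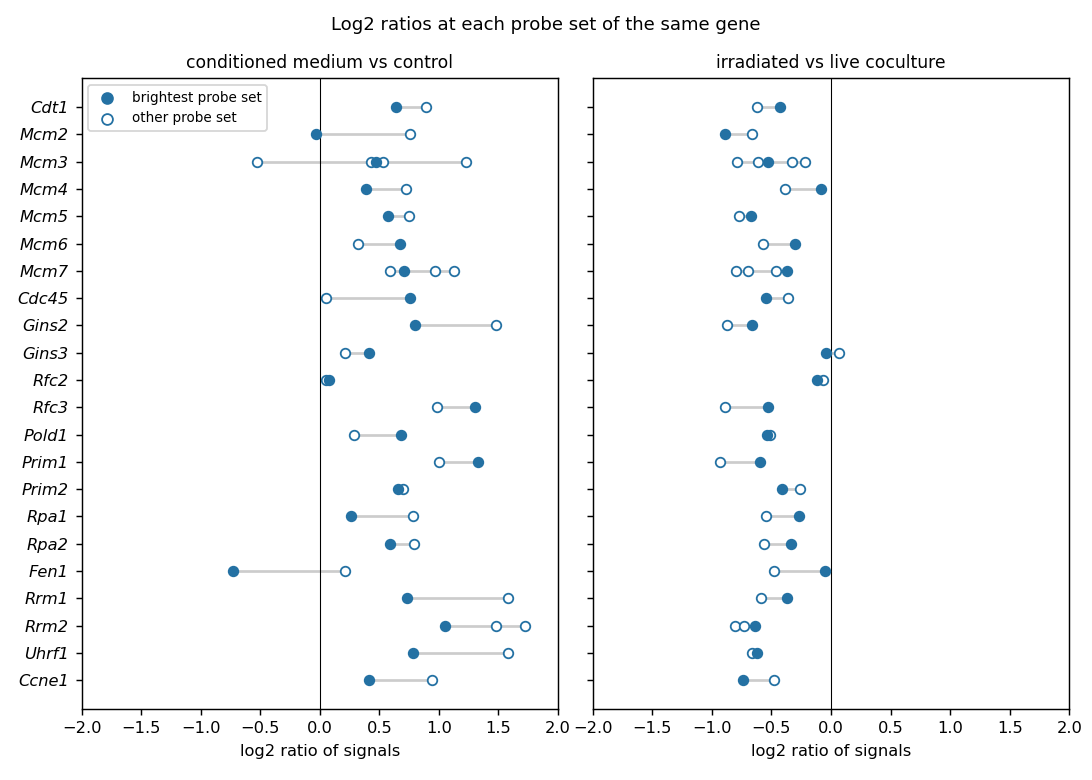
Log2 ratios (horizontal axis) at each of the 50 probe sets of the 22 genes with several probe sets above the floor, for conditioned medium against control and for irradiated against live coculture; filled points are the brightest probe set of a gene and open points the others. In the right panel nearly all points lie left of 0, and in the left panel Fen1, Mcm2 and Mcm3 have points on both sides of 0.

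Other genes of the pathway, listed by function, were read in the same way. Counts of these lists and of the cell markers below stand beside the shares of all genes past 2-fold given above. A count of 1 gene in a list is little evidence beside those shares. Of 32 further replication proteins found, 6 were at least 2-fold higher in conditioned medium, 1 in the live coculture and none in the irradiated coculture, where Rnaseh2b was 2.06-fold lower. Their median log2 ratios were 0.45, 0.40 and -0.02, and -0.39 for irradiated against live coculture, in which 31 of 32 were lower. Topbp1, which activates the checkpoint kinase ATR and helps origins fire, had signals of 259.7 (control), 576.8 (live), 376.8 (irradiated) and 747.1 (conditioned medium). Clspn, the checkpoint mediator at the fork, had 195.9, 312.0, 202.5 and 416.0. Atad5, which unloads PCNA, had 72.1, 121.3, 114.8 and 210.5. Timeless, of the fork protection complex, had 89.0, 127.6, 59.2 and 193.0 and was 2.16-fold lower in the irradiated than in the live coculture.

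Genes of mitosis were likewise higher in conditioned medium and the live coculture, but most also lay above the control in the irradiated coculture. Of 19 found, 6 were at least 2-fold higher in conditioned medium and 5 in the live coculture, none in the irradiated coculture, and all 19 were lower in the irradiated than in the live coculture, with a median log2 ratio of -0.38. Against the control their median was 0.80 in the live coculture, 0.81 in conditioned medium and 0.43 in the irradiated coculture, where 17 of 19 lay above 0. Kif11, the motor that separates spindle poles, had signals of 117.9, 299.9, 219.2 and 330.3. Mki67, the proliferation marker, had 886.3, 1258.2, 973.8 and 1555.9. Bub1, a spindle checkpoint kinase, had 189.8, 441.2, 311.8 and 437.2.

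Regulators of the G1 to S transition differed in both directions. Of 32 found, 4 were at least 2-fold higher and 1 was lower in the live coculture, 3 higher and 1 lower in the irradiated coculture, and 3 higher and 1 lower in conditioned medium. Ccnd2, a D-type cyclin, had signals of 185.1, 1549.5, 1395.6 and 470.0, so that both cocultures exceeded conditioned medium. Myc, a growth-promoting transcription factor, had 101.6, 536.0, 437.7 and 86.2, high in both cocultures and at the control's level in conditioned medium. Rbl1, a retinoblastoma family member that is itself an E2F target, had 264.9, 449.4, 358.1 and 556.1, the order of the replication genes. E2f5, a repressive E2F, was 3.14-fold, 3.52-fold and 3.29-fold lower on the treated arrays, with a signal of 925.8 in the control. The activating E2Fs, named after their values were seen, did not share an order. E2f1 had 289.7, 336.3, 287.4 and 365.9, with ratios within the SD between probe sets. E2f2 had 276.2, 245.6, 174.7 and 341.6, and E2f3 had 155.3, 193.2, 153.0 and 115.7.

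Enzymes that make nucleotides from small precursors had medians near 0. Of 25 genes of purine, pyrimidine and folate metabolism 1 was at least 2-fold higher and 1 lower in conditioned medium, and the median log2 ratio was 0.01. In the live coculture 3 were higher and none lower (median 0.17), and in the irradiated coculture 2 were higher and none lower (median -0.11). In the irradiated against the live coculture the median was -0.14. There 18 genes lay below 0 and 6 above, beside 49.9% and 50.1% of genes above the floor. Mthfd2, a folate enzyme, had signals of 297.1, 578.5, 282.1 and 554.1 and was 2.05-fold lower in the irradiated than in the live coculture. Mthfd1l, a mitochondrial folate enzyme, had signals of 65.3, 255.1, 297.1 and 102.5, high in both cocultures. Adss, an adenylate synthesis enzyme, had 556.0, 1228.1, 1251.9 and 1196.2, equally high on the 3 treated arrays. Ctps, CTP synthase, had 137.6, 260.7, 242.7 and 45.9 and was 3.00-fold lower in conditioned medium. Among 18 genes of nucleotide salvage and breakdown, 3 were higher and 1 lower in the live coculture, 3 higher and none lower in the irradiated coculture, and none higher and 1 lower in conditioned medium. Upp1, uridine phosphorylase, had 70.0, 201.2, 328.5 and 97.5. Uck2, a kinase of the uridine salvage route, had 338.3, 737.2, 901.8 and 259.3. Both were highest in the irradiated coculture, the reverse of the order of the replication genes in the cocultures.

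Targets of p53, the factor that halts the cycle after DNA damage, did not separate the cocultures: of 18 found none was 2-fold apart between irradiated and live coculture, 9 were lower and 9 higher, and the median log2 ratio was 0.02. Cdkn1a, the p53-induced inhibitor of cyclin-dependent kinases, had signals of 1007.5 (control), 2085.5 (live), 2075.6 (irradiated) and 1329.9 (conditioned medium). Against the control 3 targets were higher and 1 lower in the live coculture, 4 and 1 in the irradiated coculture, and 2 and 2 in conditioned medium. Ddb2, a damage recognition protein, had 52.7, 93.5, 86.1 and 185.3. Plk2, a stress-induced kinase, had 1374.8, 2202.4, 1613.3 and 498.1.

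**Figure D4:**
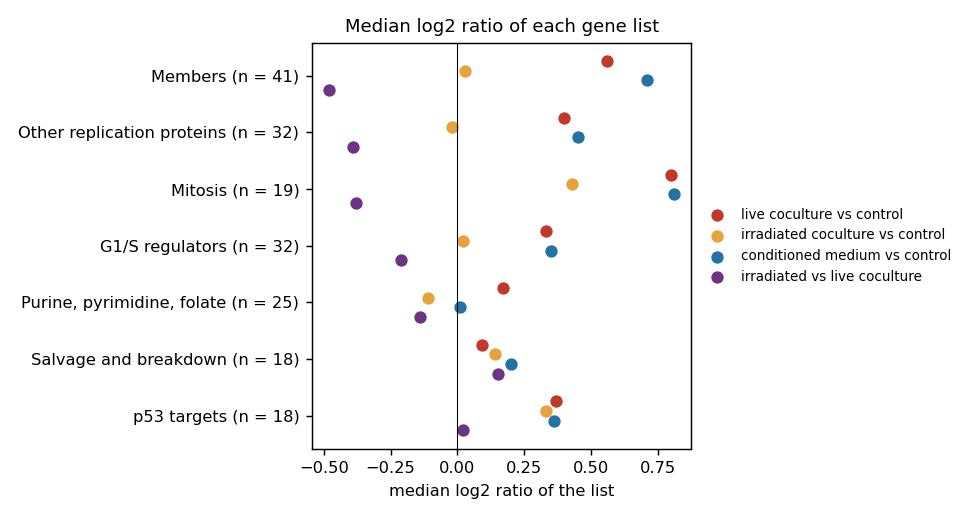
Median log2 ratio (horizontal axis) of the 41 replication and nucleotide synthesis genes and of 6 other gene lists, with the number of genes found, in 4 comparisons (colours). Replication genes, other replication proteins and G1/S regulators lie right of 0 in live coculture and conditioned medium and near 0 in irradiated coculture against control, while the p53 targets have nearly equal medians in all 3 comparisons with the control.

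Markers of other cells differed between the same arrays. The summed signal of 15 epithelial and mesothelial markers, the cell types 1D8 resembles, was 518 (control), 3014 (live), 3655 (irradiated) and 856 (conditioned medium). Krt19, a keratin, had signals of 8.6, 569.7, 767.4 and 22.2, under the floor in control and conditioned medium. In conditioned medium none of the 15 epithelial markers was 2-fold apart from the control, but 4 lay above it and 1 below. Cdh1, for example, was 1.78-fold and Epcam 1.62-fold higher there. Between the cocultures the epithelial sum was higher in the irradiated sample. Of 14 mesenchymal markers 3 were higher in live and 4 in irradiated coculture, none in conditioned medium, with sums of 4733 (control), 8555 (live), 9811 (irradiated) and 7970.4 (conditioned medium). Fn1, fibronectin, made up most of these sums, and without it they were 899 (control), 1443 (live), 1538 (irradiated) and 872 (conditioned medium). How much of the replication signal in the cocultures came from 1D8 cells was not tested.

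Markers of myeloid precursors and neutrophils had their highest sum in the control, with a summed signal of 3609 over 14 genes against 1479.9 (live), 1847 (irradiated) and 1779.8 (conditioned medium). Of these 7, 6 and 6 were at least 2-fold lower on those arrays and none was higher. Without S100a8, the brightest of them, the sums were 2645 (control), 923 (live), 1089.7 (irradiated) and 1397 (conditioned medium). Hp, haptoglobin, had signals of 782.6, 100.5, 140.8 and 189.9. Not all members were highest in the control: 2, 3 and 3 of the 14 lay above it on those arrays. Named after their values were seen, Cd34, a progenitor surface marker, had 101.3, 131.1, 98.3 and 200.3, and Prtn3, a granule protease, had 183.2, 213.5, 294.6 and 243.1. Lcn2, a neutrophil granule protein, had 105.6, 52.4, 115.7 and 126.5. The summed signal of 7 mast cell and basophil markers was 1332 (control), 228 (live), 297 (irradiated) and 834 (conditioned medium). None of 7 lymphoid and none of 3 erythroid markers was 2-fold apart from the control. The gene of the sorting marker, Cd80, had signals of 85.5, 378.2, 325.8 and 201.3. The part of these cell markers in the differences of the replication genes was not tested.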

How the data were processed

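RNA of 4 sorted BMDC samples, 1 per condition, was hybridised to 4 arrays. The deposited values are linear signal intensity values, made by the authors in GCOS 1.4 with MAS5, per the submitters' processing notes. The scaling target is not given in the sources used here; after trimming 2% of probe sets at both ends, every array had a mean of 150.0, so the arrays were used as deposited. MAS5 subtracts mismatch signal, so ratios of dim probe sets are noisy. RNA was amplified from an oligo-dT primer, per the labels' protocols.

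Of 45101 probe sets, 64 controls were left out, 34945 had 1 gene in the array annotation, 932 had several and 9160 were not in it. Through Entrez identifiers 34741 matched RefSeq genes of GRCm38.p6, with 0 symbols replaced. Signals of 0 were set to 0.1 before log2 for ranking probe sets. Ratios were taken after raising signals to the floor of 44.3. Python 3.11.15 with pandas 2.3.3 and numpy 2.4.6 was used, and the steps were checked on simulated data. The simulation took its noise from the ratios between the cocultures and altered only genes well above the floor in the control. It therefore does not cover changes in dim genes. The number of arrays limits the precision. Alternatives were floors at the 25th and 75th percentiles, quantile normalization, median centring, the mean over probe sets, the second brightest probe set, and thresholds of 1.5-fold and 3-fold.

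The genes and lists were chosen with earlier results of these data known. Named in full are all replication genes found; from each other list, up to 4 genes per comparison with the largest ratios past 2-fold could be named, and Pcna, Mki67, Cdkn1a, Krt19 and Ptprc whatever their values. Cd80, the gene of the protein used for the sort, is not independent of the gate.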

Additional observations from a re-analysis of the deposited data

How the results depend on the processing

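No paired analysis was possible because each condition had 1 array, so that no test was run and no array could be left out. Under every other floor, scaling and choice of probe set tried, no replication gene was 2-fold lower than the control. The median log2 ratio ranged from 0.36 to 0.58 in live coculture, from 0.52 to 0.76 in conditioned medium, from -0.03 to 0.09 in the irradiated coculture and from -0.51 to -0.33 for irradiated against live coculture. With the floor at the 75th percentile (156), 3, 1 and 7 genes were higher in live coculture, irradiated coculture and conditioned medium, and the medians were 0.36 in the live coculture, 0.53 in conditioned medium and -0.33 between cocultures. Of all genes 270, 293 and 170 were higher on those arrays with this floor, against 612, 632 and 419 with the reported floor. With median centring 3 genes were higher in the live coculture (median 0.45) and 7 in conditioned medium, beside 504 and 315 of all genes. With the mean over probe sets the median in conditioned medium was 0.52. With the second brightest probe set 9 genes were higher in the live coculture, and 1, Orc1, was lower in the irradiated than in the live coculture. Of all genes 754 were then higher in the live coculture, more than the 612 at the brightest probe sets. At 1.5-fold 17, 7 and 28 genes were higher in live coculture, irradiated coculture and conditioned medium, 1 (Fen1) was lower in conditioned medium and 13 were lower in the irradiated than in the live coculture. At 3-fold the counts higher were 1, 0 and 1 for the same arrays. The shares of all genes past 1.5-fold or 3-fold are not given here, so the counts at these thresholds have no background. Of the 20 ratios past 2-fold, 9 fell under it with the higher floor, 8 with centring, 6 with quantile normalization and 0 with the lower floor. With the second brightest probe set 5 fell, and with the mean 4 fell. Genes with only 1 probe set keep it in both of these checks. The ratios of Cdc6, Rfc5, Pole, Rpa3, Lig1, Tk1 and Ccne2 therefore could not change there, and those that fell belonged to the other genes.

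Counts of direction and order were added after seeing the data. Genes above 0 in the irradiated coculture numbered 14 with the higher floor. The genes with conditioned medium and live coculture above both other arrays numbered 27 to 35. Of all genes past 2-fold, 60.1% were higher in the live coculture and 62.1% in conditioned medium, which became 49.8% and 45.5% with quantile normalization and 48.3% and 44.9% with centring. For irradiated against live coculture 45.1% became 60.0% with centring. Centring shifted the median of genes above the floor to -0.15 (live), -0.11 (irradiated), -0.10 (conditioned medium) and 0.05 (irradiated against live). Relative to it the replication genes' medians were 0.60, 0.08, 0.71 and -0.48, the values found relative to all genes as deposited. Centring moves every gene of an array by the same constant, so this equality follows from the method. It is no check of the scaling. Signal over background limits the dim genes: with the higher floor the ratios of Cdc6 were 0.00 in all 3 treated samples, those of Rfc3 were 0.26 (live) and 0.23 (conditioned medium), and in conditioned medium Pole had 0.14, Ccne2 0.38, Rfc4 0.46 and Chaf1b 0.75. Marker sums without their brightest gene were also added after seeing the data.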
